A study of Mus musculus with 8 samples.

Results

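The inflammatory cytokines of microglia were followed through 10 genes of the 27998 counted in each library: Il1a, Il1b, Il18 and Il1rn of the interleukin-1 family, Tnf, the subunit genes Il12b, Il27 and Ebi3, and Il6 and Il10. The genes were matched by symbol, and each symbol matched 1 gene. The list was drawn up with earlier results of these data known. RNA was counted by scRNA-Seq in microglia of the lumbar spinal cord of C57BL/6 mice, sorted by FACS for YFP, in 8 libraries. The 4 control libraries were from Cx3cr1-yfp-creER/+ mice and the 4 A20 cKO libraries from Cx3cr1-yfp-creER/+; Tnfaip3 fl/fl mice, in each genotype naive or 1, 2 or 3 days after bilateral sciatic nerve transection. All groups thus carried 1 Cx3cr1 allele with the yfp-creER insertion, and the A20 cKO mice carried floxed Tnfaip3 alleles in addition, which Cre removes after tamoxifen. Cx3cr1 is also used by some blood monocytes and border macrophages, so the recombination is not limited to microglia by the promoter alone.

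Each library was 1 pool of the cords of several animals, so every group had 1 library and no replicate. No test between groups was possible. Levels are UMIs (unique molecular identifiers, 1 for each captured RNA molecule) scaled to a total of 1000000 UMIs over the library's kept cells, written CPM. Ranges in brackets are exact 95% intervals, which cover counting error only and not the spread between animals. Those of summed levels and of ratios take each UMI as independent. They are too narrow for a gene whose UMIs lie mostly in few cells. A gene with at least 50 UMIs in both libraries together was counted as higher or lower when the summed levels differed 2-fold or more. The percentage of all genes that were counted the same way is given beside the first count in each comparison.

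Microglia sense damage through receptors that lead to NF-kB, a transcription factor that switches on many cytokine genes. Tumour necrosis factor and interleukin-1 are both products and activators of this pathway. A20, the protein of Tnfaip3, is a ubiquitin-editing enzyme that ends NF-kB signalling and is itself an NF-kB target. Interleukin-1 is held in check by a soluble antagonist that occupies its receptor without signalling. The heterodimers IL-12, IL-23 and IL-27 are built from subunits of separate genes: p40 (Il12b) pairs with p35 or p19, and p28 (Il27) pairs with Ebi3.

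The promoters are shown here because the members are described in textbooks as NF-kB targets and yet differed widely in where and when they were found. RefSeq promoter windows (GRCm38.p6, 250 bases before to 50 bases after the start) were found for 8 of the 10 members and held 10 windows in all. The NF-kB consensus was searched on both strands. It matched in 2 of these 8 members, Il6 and Ebi3. Counted by window this is 2 of 10, against 4.51% of the 32851 windows of all genes. The 250 bases before the start are printed 5′ to 3′ in the direction of the gene, with a match in capitals. Il6 lies at chr5:30012864-30013113, plus strand, and Ebi3 at chr17:55952373-55952622, plus strand. Tnf lies at chr17:35202008-35202257, minus strand, and Il12b at chr11:44399813-44400062, plus strand, and these 2 are shown as examples of the members without a match.
Il6: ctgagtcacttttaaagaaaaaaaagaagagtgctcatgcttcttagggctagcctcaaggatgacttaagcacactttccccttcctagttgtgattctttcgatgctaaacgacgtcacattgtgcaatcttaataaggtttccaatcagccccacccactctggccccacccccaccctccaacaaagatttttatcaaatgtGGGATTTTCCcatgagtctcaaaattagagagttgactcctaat
Ebi3: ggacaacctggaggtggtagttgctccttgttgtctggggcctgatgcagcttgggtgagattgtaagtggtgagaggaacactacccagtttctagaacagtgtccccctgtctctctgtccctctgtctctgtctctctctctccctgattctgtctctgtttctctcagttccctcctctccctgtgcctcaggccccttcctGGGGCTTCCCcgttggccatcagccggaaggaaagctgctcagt
Tnf: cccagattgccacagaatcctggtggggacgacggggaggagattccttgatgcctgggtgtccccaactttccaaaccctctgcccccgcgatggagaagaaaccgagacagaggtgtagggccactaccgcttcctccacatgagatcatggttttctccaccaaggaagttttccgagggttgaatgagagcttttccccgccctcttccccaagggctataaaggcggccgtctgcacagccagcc
Il12b: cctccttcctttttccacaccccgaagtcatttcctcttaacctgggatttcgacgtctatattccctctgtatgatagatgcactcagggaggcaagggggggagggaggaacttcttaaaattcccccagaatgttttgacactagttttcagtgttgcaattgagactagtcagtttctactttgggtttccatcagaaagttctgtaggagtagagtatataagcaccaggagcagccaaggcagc
Both matches began 44 bases before the annotated start. A match is a match of letters only. The window is short, and nothing follows about the factor for members without a match in it.

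The libraries fell into sets that the labels do not give. The 4 A20 cKO libraries and control day 3, called the linked libraries below, shared 256 cell barcodes in their 10 pairs where the median rate of all pairs gives 45.6. The 15 pairs between them and control naive, day 1 and day 2 shared 98 where that rate gives 129.8, and the 3 pairs among the other libraries shared 27 where it gives 37.9. Of 14883 barcodes 14626 were kept, with a median of 2780 to 4274 UMIs per cell. Cells whose barcode recurred in another library made up 1.59% to 6.998% of a library, and results are given without them where they changed. All 8 microglial markers were detected in every library. Astrocyte or ependymal markers summed to 137 to 414 CPM in the linked libraries and to 1.49 to 3.09 CPM in the other 3, and myelin genes to 218 to 286 and 136 to 148 CPM. Only A20 cKO day 3 against control day 3 compares the genotypes within the linked libraries on the same day. For other days the genotype and the set cannot be told apart.

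**Figure D1:**
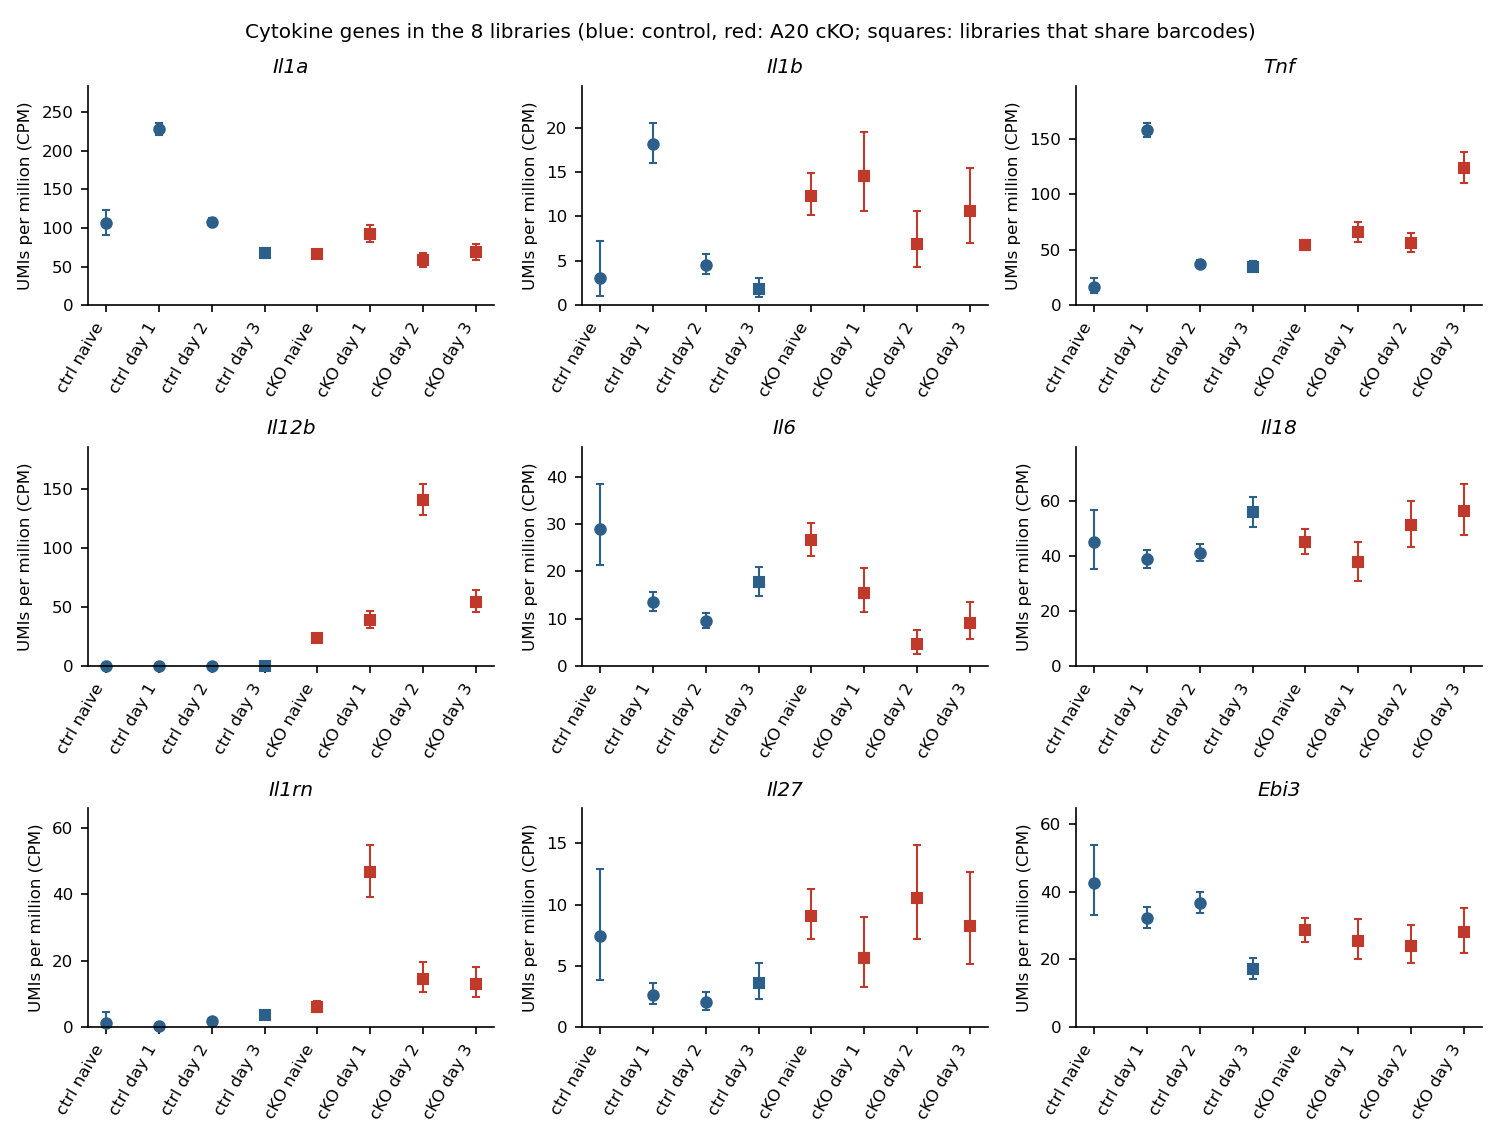
Summed level of 9 cytokine genes in each of the 8 libraries, in CPM on linear axes from 0, with exact 95% Poisson intervals (counting error only, 1 library per point); blue is control, red is A20 cKO, and squares mark the libraries that share barcodes. Tnf was highest in control day 1 at 158 CPM and A20 cKO day 3 at 124 CPM, Il12b stayed at or under 0.55 CPM in the 4 control libraries, and Il18 stayed between 37.6 and 56.3 CPM.

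Within the interleukin-1 family, Il1a, Il1b and Il1rn passed 2-fold in some comparisons and Il18 in none. In control microglia Il1a and Il1b were higher on day 1 after nerve injury and back near the naive level on day 2. In A20 cKO microglia Il1b was already higher without injury. The log2 ratios of Il18 stayed within 2-fold in all 15 comparisons. The antagonist Il1rn was nearly absent from control naive and day 1 and was at its highest levels in the A20 cKO libraries.

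Il1a (ENSMUSG00000027399, chr2:129299610-129309972, minus strand) encodes interleukin-1 alpha, an alarmin released by damaged cells. From naive to day 3, the control libraries held 106, 229, 107 and 67.0 CPM of it. The A20 cKO libraries held 66.4, 91.8, 58.3 and 68.5 CPM. The 5 linked libraries, control day 3 among them, all lay below the other 3 libraries. The log2 ratio was 1.103 (0.88 to 1.34) for control day 1 over naive and −1.09 (−1.17 to −1.004) for control day 2 over day 1. Control day 2 and control naive could not be separated, with a log2 ratio of 0.01 (−0.21 to 0.25). On day 3 the genotypes could not be separated either, at 0.03 (−0.23 to 0.28).

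Il1b (ENSMUSG00000027398, chr2:129364570-129371139, minus strand) encodes the precursor of interleukin-1 beta, which caspase-1 cleaves before release. Its levels were low, with 3.09, 18.2, 4.55 and 1.78 CPM in control from naive to day 3, the naive value from 5 UMIs. The A20 cKO libraries held 12.3, 14.5, 6.92 and 10.6 CPM. Control day 1 and A20 cKO naive and day 1 were the 3 highest. The intervals of control day 1 and A20 cKO naive did not overlap, but counting error did not separate A20 cKO day 1 from either. The interval of A20 cKO day 1 (10.6 to 19.5) overlapped those of control day 1 (16.0 to 20.6) and A20 cKO naive (10.1 to 14.9), and that of A20 cKO day 3 (7.001 to 15.5) overlapped both A20 cKO intervals. The log2 ratio was 2.43 (1.32 to 4.20) for control day 1 against naive, 1.87 (0.73 to 3.65) for A20 cKO naive against control naive, and 2.74 (1.96 to 3.74) for A20 cKO naive against control day 3, which lies within the linked libraries. Of the UMIs of Il1a and Il1b together, Il1b made up 2.59% to 7.38% in the control libraries and 10.6% to 15.7% in the A20 cKO libraries.

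Il18 (ENSMUSG00000039217, chr9:50554827-50581840, plus strand) encodes a cytokine that, like interleukin-1 beta, is activated by caspase-1. It lay between 37.6 CPM in A20 cKO day 1 and 56.3 in A20 cKO day 3, with 45.0 in control naive and 45.1 in A20 cKO naive. After injury it was 38.9, 41.2 and 55.9 CPM in control day 1, 2 and 3. The log2 ratio on day 3 between genotypes was 0.01 (−0.27 to 0.29).

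Il1rn (ENSMUSG00000026981, chr2:24336853-24351494, plus strand) encodes the interleukin-1 receptor antagonist. The control libraries held 1.23, 0.21, 1.77 and 3.57 CPM from naive to day 3, from 2, 3, 28 and 26 UMIs. The A20 cKO libraries held 5.94, 46.6, 14.5 and 12.98 CPM. All 4 A20 cKO libraries were above all 4 control libraries. On day 3, within the linked libraries, A20 cKO was higher than control by 1.86 log2 (1.078 to 2.66). The day 1 value rested on 1 barcode, which held 106 of the 141 UMIs and was also found in A20 cKO day 2. Without it A20 cKO day 1 held 11.6 CPM. In A20 cKO day 2 the same barcode held 13 UMIs of Il1rn, which is 12.3% of its count in day 1. Its total UMIs there were 14.0%, its Ccl5 UMIs 15.2% and its Ccl3 UMIs 16.7% of those in day 1. This barcode was singled out after its values were seen, and whether it is 1 cell counted in both libraries was not tested. Without cells of recurring barcodes Il1rn stood at 12.1 CPM in A20 cKO day 1 and 10.5 in day 2, and the log2 ratio against A20 cKO naive went from 2.96 to 1.04 on day 1 and from 1.29 to 0.83 on day 2. Of the UMIs of Il1rn, Il1a and Il1b together, Il1rn made up 0.09% in control day 1 (0.018 to 0.25), 4.93% in control day 3 (3.25 to 7.15) and 14.1% in A20 cKO day 3 (9.91 to 19.2).

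Among members with enough UMIs, Tnf showed the largest ratio to naive in control microglia. In control animals the level was 9.32-fold higher on day 1 than in naive cells and lay at 37.4 CPM by day 2. In A20 cKO animals it was higher than in control without injury, was within 2-fold of that level on days 1 and 2, and was highest on day 3. Tnf (ENSMUSG00000024401, chr17:35199381-35202007, minus strand) encodes tumour necrosis factor, which is made as a membrane protein and shed. The control libraries held 16.7 CPM (10.98 to 24.2), 158 (152 to 165), 37.4 (34.5 to 40.6) and 34.9 (30.7 to 39.4) from naive to day 3. The A20 cKO libraries held 54.2 CPM (49.4 to 59.2), 65.7 (56.9 to 75.5), 56.0 (47.9 to 65.1) and 124 (110.3 to 138). Control day 1 was the highest, A20 cKO day 3 the second, and control naive the lowest, while neighbours among A20 cKO naive, day 1 and day 2 had overlapping intervals.

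The log2 ratio of Tnf was 3.22 (2.70 to 3.85) for control day 1 against naive and −2.08 (−2.21 to −1.95) for day 2 against day 1. A20 cKO naive was above control naive by 1.68 (1.14 to 2.32), across the sets, and above control day 3 by 0.63 (0.41 to 0.86), within the linked libraries. A20 cKO day 3 was above control day 3 by 1.83 (1.58 to 2.07) and above A20 cKO naive by 1.19 (0.98 to 1.40). After thinning each cell to 2000 UMIs, Tnf was found in 2.59%, 23.3%, 6.55% and 5.80% of control cells from naive to day 3, and in 7.16%, 11.3%, 7.99% and 13.9% of A20 cKO cells. Without thinning the shares of control day 1 and A20 cKO day 3 were 38.5% and 23.3%. The 33 kept cells with fewer than 4 microglial markers served as the background. Tnf was found in 1 of them, a share of 3.03% (0.077 to 15.8), and each other member in 0, for which the limit on cells holding a UMI is 9.09%. Among all kept cells of the linked libraries the share with Tnf was 11.8%, inside that interval. Il1b, Il12b, Il6, Il1rn, Il27 and Ebi3 were in 1.68% to 7.93% of them, under the limit. For Tnf and these members the 33 cells are too few to tell a level from background. The median depth of the 33 cells was 1355 UMIs against 3532 in all kept cells. All 33 were in the linked libraries, so they give no background for control naive, day 1 and day 2.

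Control day 1 stood apart in genes that respond to cell isolation as well as to stimulation. The 20 early-response and heat-shock genes summed to 31218 CPM there and to 2555 to 7769 CPM in the other 7 libraries. Fos, an immediate-early gene, was found in 99.7% of control day 1 cells and in 4.93% of control naive cells. The part of this response in the levels of Tnf, Il1a and Il1b on day 1 was not tested. Among A20 cKO libraries Fos was at 508 CPM naive and 504 CPM on day 3 and at 13.2 and 21.1 CPM on days 1 and 2. Control day 3, with Fos at 301 CPM, held 34.9 CPM of Tnf, and A20 cKO day 3, with more Fos, was above it in Tnf by 1.83 log2. A20 cKO naive, with Fos like that of A20 cKO day 3, held 54.2 CPM of Tnf. A20 cKO day 1 and day 2, with Fos far lower, held 65.7 and 56.0 CPM. The part of this response in these Tnf levels was not tested.

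The subunit genes of IL-12 and IL-27 differed from each other. Il12b was found almost only in A20 cKO microglia, at all 4 times, and there in few cells at high counts. Il27 was low in every library. Ebi3 was at a moderate level throughout.

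Il12b (ENSMUSG00000004296, chr11:44400063-44414033, plus strand) encodes the p40 subunit shared by IL-12 and IL-23. The control libraries held 0, 7, 4 and 4 UMIs from naive to day 3, at most 0.55 CPM. The A20 cKO libraries held 209, 118, 426 and 138 UMIs, or 23.4 CPM (20.4 to 26.8), 39.0 (32.3 to 46.7), 140.4 (127 to 154) and 54.3 (45.6 to 64.2). All 4 A20 cKO libraries were above all 4 control libraries. Among the summed levels of A20 cKO, day 2 was the highest and naive the lowest. Most of these UMIs lay in few cells, so the intervals are too narrow to settle this order. After thinning, 43 of 2612 naive cells and 14 of 830 day 1 cells held Il12b. A20 cKO naive was at least 12.7-fold higher than control naive, taking 3 counts as the limit of 0 UMIs in the control naive library. Within the linked libraries the log2 ratio was 6.46 (5.24 to 8.52) on day 3 and 5.25 (4.04 to 7.30) for A20 cKO naive against control day 3. A20 cKO day 2 was above A20 cKO naive by 2.58 log2 (2.34 to 2.83) and day 3 by 1.21 (0.89 to 1.53). Leaving out the barcode with the most Il12b in each library gave 20.7, 28.1, 77.5 and 43.3 CPM, in the order naive, day 1, day 2 and day 3, and the log2 ratio of day 2 over naive was then 1.90. Without recurring barcodes A20 cKO day 1 held 29.0 CPM, and its log2 ratio over A20 cKO naive was 0.29.

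The partners that p40 needs were hardly found. Il12a, the p35 subunit, had 1 UMI in all libraries, in control day 2, and Il23a, the p19 subunit, was at 0 to 0.66 CPM. Dendritic cells and monocytes are known sources of p40. The 6 markers of these cells summed to 5.05 to 5.82 CPM in control naive, day 1 and day 2, to 32.5 in control day 3, and to 40.8, 41.9, 110.1 and 77.5 CPM in A20 cKO naive, day 1, day 2 and day 3. Plac8 was at 83.4 CPM in A20 cKO day 2, Fn1 and Itgal at 12.9 each, Flt3 at 0.66, Ccr2 at 0.33 and Ly6c2 at 0. In control day 2 they were at 1.26, 2.09 and 0.89, 0.63, 0.63 and 0.32 CPM in the same order. In A20 cKO, 32 cells had 5 or more Il12b UMIs and held 81.1% of its UMIs. Of them, 32 carried at least 4 of the 8 microglial markers and 0 carried 3 or more of the 6 monocyte or dendritic markers. Nearly all A20 cKO cells were alike in this. From naive to day 3, only 3, 5, 7 and 5 kept cells had fewer than 4 microglial markers. Only 0, 0, 2 and 0 had 3 or more monocyte or dendritic markers. These 2 counts therefore do not set the 32 cells apart from the others. By the rule that also limits the markers of other types, 1 of the 32 was not microglial. Plac8 was found in 25% (11.5 to 43.4) of the 32 cells against 8.22% of the 5001 other A20 cKO cells. Ccr2, Flt3 and Fn1 were each in 1 of the 32 cells, 3.12% (0.079 to 16.2), against 0.60%, 0.28% and 0.98%. Itgal and Ly6c2 were each in 0% (0 to 10.9) against 2.30% and 0.16%. For the markers other than Plac8 the shares of the other cells lay inside these intervals, so 32 cells are too few to give a direction. The part of monocytes or dendritic cells in the Il12b level was not tested.

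Il27 (ENSMUSG00000044701, chr7:126589010-126594941, minus strand) encodes the p28 subunit. It lay at 7.41, 2.63, 2.02 and 3.57 CPM in control from naive to day 3 and at 9.08, 5.61, 10.5 and 8.26 CPM in A20 cKO, from 12 to 81 UMIs each. The groups overlap, since control naive was above A20 cKO day 1. The log2 ratio of A20 cKO naive was 1.33 (0.69 to 2.04) over control day 3 but 0.24 (−0.59 to 1.31) over control naive, an interval that includes 0. Ebi3 (ENSMUSG00000003206, chr17:55952640-55957022, plus strand), its partner, held 42.6, 32.3, 36.7 and 17.2 CPM in control naive to day 3 and 28.6, 25.4, 24.1 and 27.9 in A20 cKO. Control day 3 was the lowest and was below control day 2 by a log2 ratio of −1.09 (−1.39 to −0.81), a comparison across the sets.

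Il6 was lower after injury in both genotypes. Il6 (ENSMUSG00000025746, chr5:30013114-30019981, plus strand) encodes interleukin-6, a cytokine that acts through gp130. It was highest in the naive libraries, at 29.0 CPM in control and 26.6 in A20 cKO. On days 1 to 3 the control libraries held 13.5, 9.61 and 17.7 CPM, and those of A20 cKO 15.5, 4.61 and 9.05. Every injured library was below the naive library of its genotype, with log2 ratios of −1.11 (−1.57 to −0.61), −1.60 (−2.07 to −1.09) and −0.72 (−1.20 to −0.20) in control and −0.76 (−1.26 to −0.32), −2.48 (−3.42 to −1.75) and −1.53 (−2.24 to −0.93) in A20 cKO. The A20 cKO ratios lie within the linked libraries. Control day 3 against naive crosses the sets. Il10 (ENSMUSG00000016529, chr1:131019845-131024974, plus strand), an anti-inflammatory cytokine, had 3 UMIs in control day 1 and 0 in the other 7 libraries. In control day 2, 0 of 3585 cells held it, for which the limit on cells holding a UMI is 0.0837%. This does not limit the cells that express it below detection.

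The members past 2-fold were counted in each comparison. In control day 1 against naive 3 of 6 members with enough UMIs were higher (Il1a, Il1b and Tnf), against 4.35% of all genes, and 1 was lower (Il6), against 9.48%. In control day 2 against naive 1 was higher (Tnf, 6.40% of all genes) and 1 lower (Il6, 8.13%) of 6. Control day 3 against naive, across the sets, had 1 higher (Tnf, 9.73%) and 1 lower (Ebi3, 3.25%) of 5. In A20 cKO, 1 of 9 was higher on day 1 (Il1rn, 2.24%) and 0 lower (1.93%). On day 2 Il12b and Il1rn were higher, 2 of 9 (3.77%), and Il6 lower, 1 of 9 (3.49%). On day 3 Tnf, Il12b and Il1rn were higher, 3 of 9 (2.71%), and Il6 lower, 1 of 9 (2.74%). Between successive days, control day 2 against day 1 had 0 of 7 higher (4.77%) and 3 lower (Il1a, Il1b and Tnf, 2.29%), and control day 3 against day 2, across the sets, 1 of 8 higher (Il1rn, 14.2%) and 2 lower (Il1b and Ebi3, 2.96%). In A20 cKO, day 2 against day 1 had 1 of 8 higher (Il12b, 1.64%) and 3 lower (Il1b, Il6 and Il1rn, 1.14%). Its Il1rn count rests on recurring barcodes, without which the levels of 12.1 and 10.5 CPM are within 2-fold. A20 cKO day 3 against day 2 had 1 of 7 higher (Tnf, 0.496%) and 1 lower (Il12b, 0.727%).

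Between genotypes, A20 cKO naive against control naive had 4 of 9 members higher (Il1b, Tnf, Il12b and Il1rn, 8.56% of all genes) and 0 lower (3.12%). On day 3 Tnf, Il12b and Il1rn were higher, 3 of 7 (2.29%), and 0 were lower (3.45%). A20 cKO naive against control day 3, also within the linked libraries, had 3 of 9 higher (Il1b, Il12b and Il27, 1.24%) and 0 lower (2.16%). A20 cKO was also compared with control across the sets on the other days. On day 1, 3 of 9 were higher (Il12b, Il1rn and Il27, 17.3%) and 2 lower (Il1a and Tnf, 3.70%). On day 2, 3 of 9 were higher (Il12b, Il1rn and Il27, 11.9%) and 1 lower (Il6, 5.22%). The comparisons share libraries and are not independent of each other. On day 3 Il1b had under 50 UMIs in both libraries together and was not counted. Its levels of 1.78 CPM in control and 10.6 in A20 cKO rest on 13 and 27 UMIs.

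The members also differed in how their RNA was spread over cells. Il18, Ebi3, Il27 and Il6 were found mostly as single molecules: positive cells held 1.00 to 1.22 UMIs on average in every library. Il27 was in few cells, with 0.89% in control day 2 and 2.50% in A20 cKO naive without thinning, so its ratio below does not show a wide spread. For these 4 genes the variance of UMIs per cell, after thinning to 2000 UMIs, was 0.91 to 1.501 times the mean, where random sampling of equal cells gives a ratio near 1. Il1a, found in 10.7% to 33.8% of thinned cells, had ratios of 1.081 to 1.47. Tnf had 1.095 to 1.43 in control and 1.88 to 2.15 in A20 cKO. Cells with Tnf held 1.17, 1.74, 1.25 and 1.36 UMIs of it on average in control from naive to day 3 and 1.66, 1.42, 1.75 and 2.42 in A20 cKO, without thinning, so that the genotypes overlap. Of the cells thinned to 2000 UMIs, those with Tnf held 1.15, 1.31, 1.07 and 1.202 UMIs of Tnf in control and 1.37, 1.26, 1.44 and 1.63 in A20 cKO. In control day 1, the library with the most Tnf, the ratio was 1.42 and the highest cell held 14 UMIs.

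**Figure D2:**
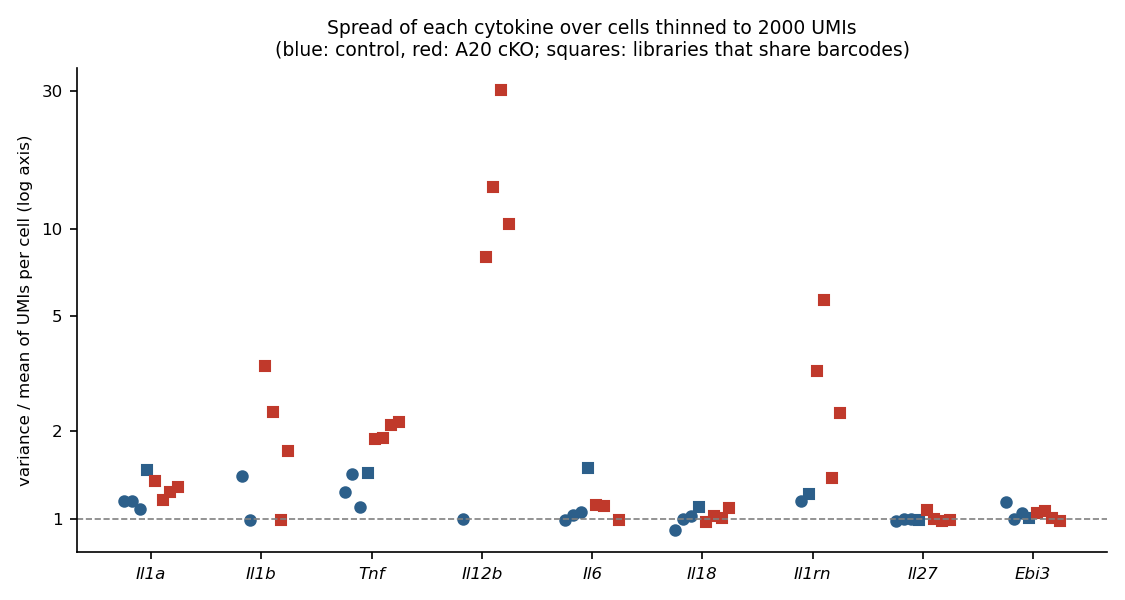
Variance of UMIs per cell divided by the mean, on a log axis, for 9 cytokine genes in cells thinned to 2000 UMIs; each point is 1 library with at least 5 positive cells, blue is control, red is A20 cKO, squares mark the libraries that share barcodes, and the dashed line at 1 is what random sampling of equal cells gives. Il12b in A20 cKO stood at 8.04 to 30.3, Il1rn reached 5.69, and Il18, Il27 and Ebi3 stayed near 1.

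Il12b was the most uneven. Its variance was 8.04, 14.0, 30.3 and 10.4 times the mean in A20 cKO naive, day 1, day 2 and day 3, and the highest single cells held 24, 33, 191 and 28 UMIs. More than 40% of the Il12b of A20 cKO day 2, 44.8%, was in 1 cell, in which 191 of 7666 UMIs were Il12b. That cell carried 7 of the 8 microglial markers, 271 UMIs of the chemokine Ccl5, 91 of Ccl3, 62 of Ccl4 and 8 of Tnf, and its barcode was in no other library. The second cell held 76 UMIs of Il12b with 139 of Ccl4, 10 of Tnf and 5 of Il1rn, and the third 49 with 179 of Ccl4 and 9 of Tnf. These cells were singled out by their Il12b count after it was seen. In A20 cKO naive, day 1, day 2 and day 3, 12, 5, 9 and 6 cells held 5 or more UMIs of Il12b, while 40, 16, 47 and 16 cells held 1 UMI. After thinning, Il12b was found in 1.65% (1.19 to 2.21), 1.69% (0.93 to 2.81), 5.27% (3.66 to 7.32) and 3.53% (2.14 to 5.46) of A20 cKO cells.

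Whether the cytokines were made by the same cells was asked within each library, in thinned cells. For 55 combinations of a pair and a library at least 5 cells with both members were expected from the product of their shares. The number found was 0.56 to 2.44 times the number expected, with a median of 1.083. The highest, for Il1a and Ebi3 in A20 cKO day 1, was 1.04 without recurring barcodes, where the remaining cells were also thinned anew. The part of the removed cells and the part of the new random draw in this change were not separated. In control day 1, Il1a and Tnf met in 255 cells where 254.2 were expected, a ratio near 1. Il1a and Il1b, whose genes lie close together on chromosome 2, met in 42 cells in control day 1 where 28.1 were expected, and the share with Il1b was 3.85% (2.79 to 5.17) of cells with Il1a and 1.92% (1.38 to 2.60) of cells without.

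**Figure D3:**
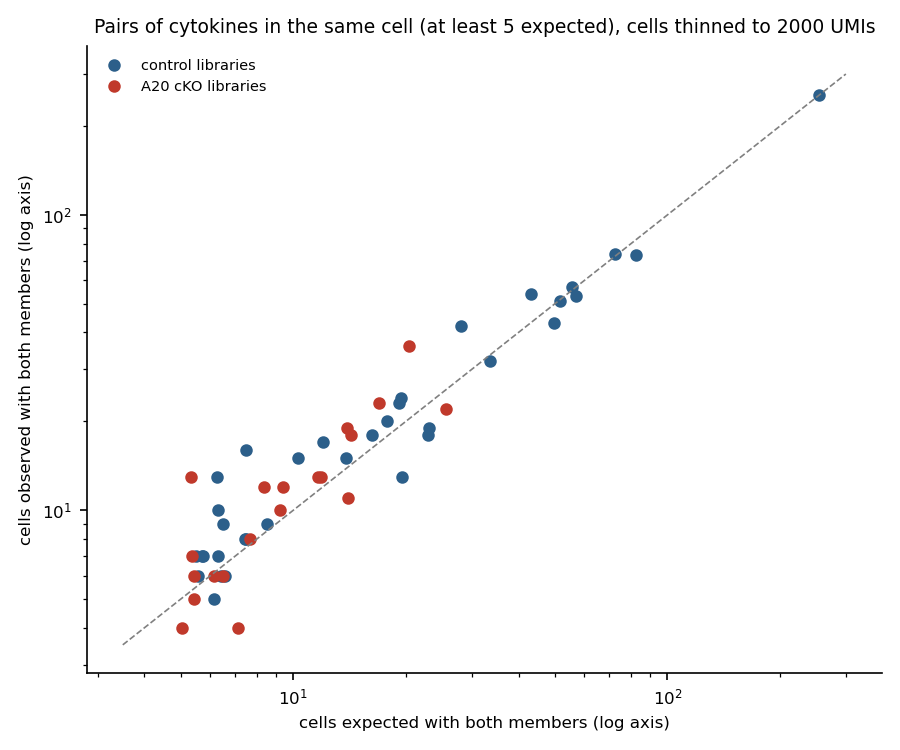
Cells found with both members of a pair against the number expected from the product of their shares, on log axes, in cells thinned to 2000 UMIs; each point is 1 of 55 combinations of a pair and a library with at least 5 cells expected, and the dashed line marks equality. Most points lie near the line, with Il1a and Tnf in control day 1 at 255 found for 254.2 expected and in A20 cKO naive at 36 for 20.3.

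In A20 cKO naive, Il1a and Tnf met in 36 cells where 20.3 were expected, a ratio of 1.77. Of cells with Il1a, 12.7% (9.04 to 17.1) held Tnf against 6.49% (5.52 to 7.56) of those without. This is 1 of 4 among the 55 combinations whose intervals did not overlap. The ratio was 1.36, 1.31 and 1.43 in A20 cKO day 1, day 2 and day 3 and 1.41 in control day 3, each with overlapping intervals. For Tnf and Il12b fewer than 5 cells were expected in every library. They met in 12 cells where 3.08 were expected in A20 cKO naive, 1 where 1.59 were expected on day 1, 6 where 2.64 were expected on day 2 and 13 where 2.65 were expected on day 3. These Tnf and Il12b counts were chosen after they were seen. Cells with 3 or more members made up 2.17% of control day 1, near the 2.13% expected from independent shares, 0.53% of control day 3 where 0.28% were expected, 1.30% of A20 cKO naive where 0.59% were expected and 2.04% of A20 cKO day 3 where 1.02% were expected.

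Cells with Tnf were compared with cells without Tnf for other inflammatory genes, within each library. In A20 cKO naive 187 thinned cells held Tnf and 2425 did not. Ccl4, a chemokine, was found in 38.0% (31.0 to 45.3) of cells with Tnf and 11.3% (10.1 to 12.6) of cells without, Ccl3 in 33.7% and 12%, Ccl2 in 34.2% and 14.1%, and Cxcl10 in 28.9% (22.5 to 35.9) and 8.08% (7.03 to 9.24). Nfkbia, the inhibitor that NF-kB itself induces, was found in 75.9% and 61.2%, and the interferon-induced Ifit3 in 41.2% and 20.99%. Gapdh, a housekeeping gene, was found in 56.1% (48.7 to 63.4) and 47.4% (45.4 to 49.4), and Mbp, a myelin gene, in 16.6% (11.6 to 22.7) and 13.2% (11.9 to 14.6). On day 3 of A20 cKO, Ccl4 was in 49.3% (37.6 to 61.1) of 75 cells with Tnf and 20.1% (16.5 to 24.03) of those without. The gaps were not equal in all A20 cKO libraries. On day 1, with 94 cells with Tnf, Ccl4 was in 31.9% (22.7 to 42.3) and 15.5% (12.9 to 18.3), while the intervals of Ccl3 and Ccl2 overlapped, at 17.0% (10.05 to 26.2) and 9.65% (7.61 to 12.01) for Ccl3. On day 2, with 50 cells with Tnf, Cxcl10 was in 48% (33.7 to 62.6) and 17.4% (14.4 to 20.7).

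In control day 1 the gap was small. Among 752 cells with Tnf and 2473 without, Ccl4 was found in 58.8% and 55.4%, Ccl3 in 66.8% (63.3 to 70.1) and 60.5% (58.5 to 62.4) and Cxcl10 in 1.86% and 1.37%. Fos was in 98.4% and 98.6% and Egr1 in 76.9% and 75.5%. In control day 3, a linked library, Cxcl10 was found in 23.9% (16.2 to 33.0) of 109 cells with Tnf and 6.16% (5.09 to 7.39) of the others, Ccl4 in 15.6% (9.36 to 23.8) and 5.43% (4.42 to 6.59) and Ifit3 in 48.6% (38.9 to 58.4) and 29.1% (26.9 to 31.2). The gaps were thus found in a control library too. The difference between libraries in these gaps was not tested.

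**Figure D4:**
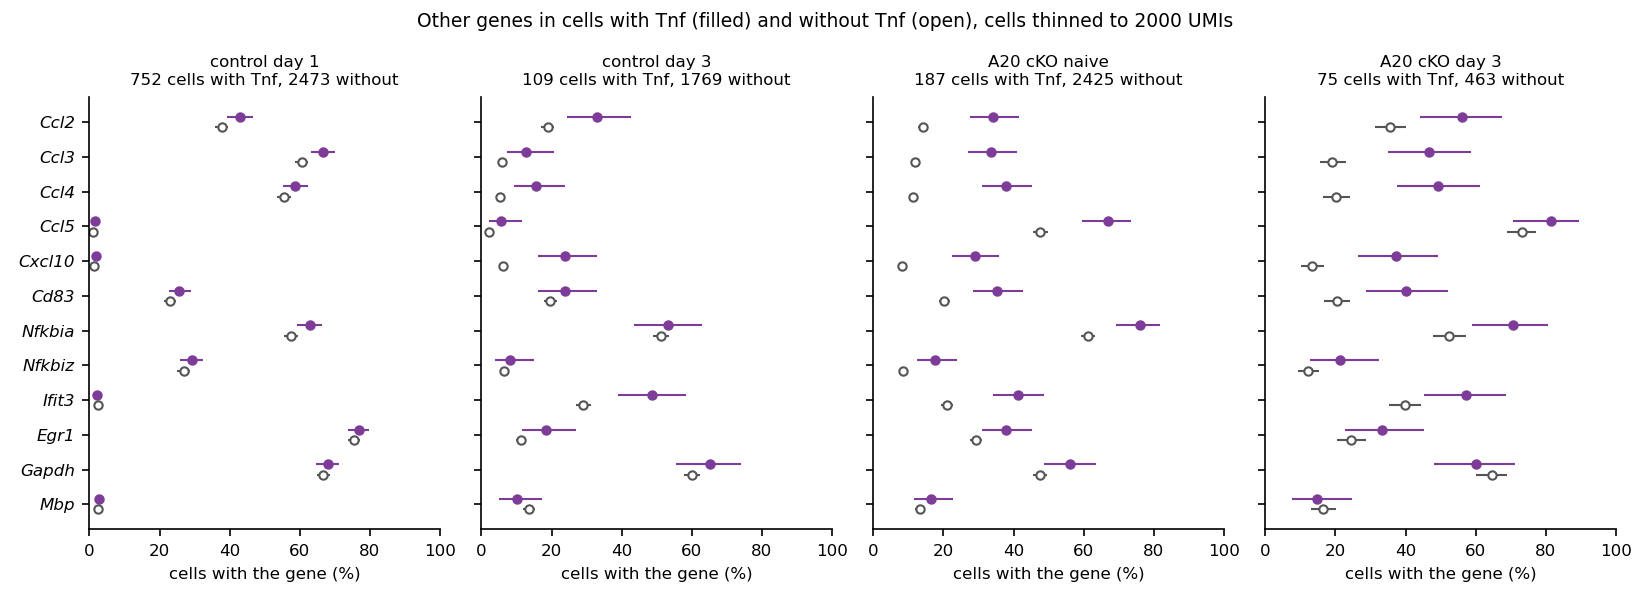
Share of cells with each of 12 genes among cells with Tnf (filled) and without Tnf (open), in percent on linear axes, in 4 libraries thinned to 2000 UMIs, with exact 95% Clopper-Pearson intervals (counting error only). In A20 cKO naive Ccl4 was in 38.0% of cells with Tnf and 11.3% of the others, while in control day 1 it was in 58.8% and 55.4%.

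The cells with Il1b and with Il12b in A20 cKO naive were described in the same way. Of 36 cells with Il1b, Cxcl10 was in 38.9% (23.1 to 56.5) against 9.16% of those without, Ccl4 in 41.7% (25.5 to 59.2) against 12.8%, and Tnfaip3 in 27.8% (14.2 to 45.2) against 7.84%. Of 43 cells with Il12b, Ccl5 was in 76.7% (61.4 to 88.2) against 48.6%, Cd83, a surface marker of activation, in 53.5% against 20.7% and Ifit3 in 53.5% (37.6 to 68.8) against 21.9%. In A20 cKO day 2, with 33 cells with Il12b, the intervals of Ccl5 and Cd83 overlapped. Ccl5 was in 81.8% (64.5 to 93.0) against 80.4% (77.0 to 83.6), and Cd83 in 30.3% (15.6 to 48.7) against 18.4% (15.3 to 21.7). Ifit3 was in 63.6% (45.1 to 79.6) against 38.8% (34.8 to 42.8). The microglial marker Tmem119 was in 78.8% (61.1 to 91.02) of these 33 cells and 93.8% (91.5 to 95.6) of the others. For Il18, Il6 and Ebi3 in A20 cKO naive, Cxcl10 was in 11.9% (8.03 to 16.7), 6.98% (3.24 to 12.8) and 10.7% (5.97 to 17.3) of cells with the gene against 9.34%, 9.71% and 9.51% of cells without.

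The receptors and processing enzymes of these cytokines were counted by the same rule. Of the 17 genes of the IL-1 and IL-18 system, 10 had enough UMIs in control day 1 against naive, and 1 was higher (4.35% of all genes) and 2 lower (9.48%). Nlrp3, the inflammasome sensor, lay between 32.9 and 86.5 CPM, and Casp1, which cleaves both precursors, between 47.2 and 83.0. Il1r1, the signalling receptor of interleukin-1, was at 0.57 to 3.15 CPM. Il18bp, a secreted inhibitor of interleukin-18, was at 1.83 to 3.70 CPM in control naive, day 1 and day 2, 7.69 in control day 3 and 8.30 to 11.9 in A20 cKO. Of the 7 genes of the TNF system, 6 had enough UMIs, of which 0 were 2-fold higher (4.35%) and 1 lower (9.48%) on control day 1, and 0 higher (2.29%) and 0 lower (3.45%) on day 3 between genotypes. The TNF receptor gene Tnfrsf1a lay between 99.9 and 176 CPM.

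Of 11 subunits and receptors of the IL-6, IL-10, IL-12 and IL-27 group, 5 had enough UMIs in control day 1 against naive, where 1 was higher (Socs3, 4.35% of all genes) and 1 lower (Il6st, the gp130 receptor, 9.48%). Socs3, a feedback inhibitor of cytokine receptors, was at 43.2 CPM in control naive and 599 on day 1, and is, like Zfp36, also among the early-response genes above. Il10ra, a receptor chain for interleukin-10, was at 319 CPM in control naive and 144 to 201 CPM elsewhere. Among 18 regulators of cytokine transcription and mRNA, 5 were higher (4.35% of all genes) and 1 lower (9.48%) on control day 1, with a median log2 ratio of 0.23 against −0.15 for all genes. Nfkbiz went from 25.9 to 177 CPM, Zfp36, which destabilises Tnf mRNA, from 118 to 601, and Nfkbia from 205 to 523. On day 3 within the linked libraries 6 of the 18 were higher in A20 cKO (2.29% of all genes) and 0 lower (3.45%), with a median of 0.38 against −0.11. Relb was at 56.3 CPM in A20 cKO and 18.4 in control, Nfkb2 at 27.2 and 8.78, Nfkbiz at 76.3 and 31.8, and Tnfaip3 itself at 67.7 and 20.3. The 3′ tag does not check the deletion of Tnfaip3.

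Genes whose course over the 8 libraries was most like that of a member were found by the root mean square difference of log2(CPM + 1) centred on each gene's mean, where a smaller value is a closer course. The points are only 8 libraries, which share the sets described above. For Tnf the 3 nearest of 6173 genes were Ppp1r15a, Socs3 and Marcksl1, at 0.44 to 0.47 against a median of 1.02. For Il12b they were C3, Ly6i and H2-Q7, at 0.58 to 0.70 against 2.74. C3, the central complement component, had 0 to 0.41 CPM in the control libraries and 27.6, 32.4, 42.8 and 59.0 CPM in A20 cKO, so its highest level was on day 3 and not on day 2. For Il6 they were Abcc3, Abcb4 and Cd300a, at 0.26 to 0.30 against 0.78. For Il1b the nearest was Relb at 0.48, for Il1a Rrad at 0.20, for Il27 Tbc1d8 at 0.21, for Ebi3 Pgpep1 at 0.14 and for Il18 Tmem242 at 0.07. For Il1rn the 3 nearest were Mbp, Fbxw17 and Bcl2a1d, at 0.81, 0.81 and 0.82 against 1.61, in a course that includes the A20 cKO day 1 value of 46.6 CPM, of which 75.2% was 1 barcode. Mbp is a myelin gene, with 14.7 to 24.7 CPM in control naive, day 1 and day 2, 80.3 in control day 3 and 79.9 to 134 CPM in A20 cKO. The part of RNA from other cells in the Il1rn levels was not tested.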

How the data were processed

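Single-cell RNA was measured in 8 libraries, 1 per genotype and time. The files the authors deposited hold UMI counts for every gene in every barcode, not normalized, beside gene and barcode lists. The submitters' processing notes name Cell Ranger 2.1.1 and mm10; the labels and the methods differ on the kit version. Libraries held 1648400 to 15817426 UMIs. Barcodes with at least 1000 UMIs, 500 genes and at most 10% mitochondrial UMIs were kept. Doublets were not removed. Counts were summed per library as CPM. Log2 ratios used 0.5 added UMIs. Intervals were exact Poisson, Clopper-Pearson or conditional, at 95% (counting error only). A count of 0 was bounded by 3 counts. Shares and pairs used cells thinned to 2000 UMIs without replacement, leaving out shallower cells.

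The members and lists were chosen with earlier results of these data known. Genes named are the members, the listed pathway, marker and handling genes, and the 3 nearest genes of each member with at least 200 UMIs, with mean levels of 20 CPM or more required. Mitochondrial genes and genes of ribosomal proteins, predicted genes and sex-chromosome genes (Xist and the Y-linked ones) could not be named as nearest. Marker lists covered oligodendrocytes, endothelial or mural cells, astrocytes or ependyma, neurons, T or NK cells, neutrophils, monocytes or dendritic cells and border macrophages. Cells were called microglial with at least 4 of 8 microglial markers and fewer than 3 markers of every other type. Coordinates are from GENCODE M21 on GRCm38. Computation used Python 3.11.15, numpy 2.4.6, scipy 1.17.1 and pandas 2.3.3, and was tested on simulated counts.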

Additional observations from a re-analysis of the deposited data

Results flagged for a closer look

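For Tnf and Ebi3 the A20 cKO library was above its control at some times and below it at others, with counting intervals on opposite sides of 0. Tnf was higher in A20 cKO in the naive libraries by 1.68 log2 (1.14 to 2.32), lower on day 1 at −1.26 (−1.48 to −1.06), higher on day 2 by 0.59 (0.33 to 0.83) and higher on day 3 by 1.83 (1.58 to 2.07). Ebi3 was lower in A20 cKO in the naive libraries at −0.58 (−0.96 to −0.17) and on day 2 at −0.60 (−0.98 to −0.25), and higher on day 3 by 0.71 (0.26 to 1.14). The differences between times were not tested, since each value compares 1 library with 1 library. Only the day 3 values compare linked libraries. For the control arm of day 1 the early-response genes are at 31218 CPM against 3079 CPM in A20 cKO day 1.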

How the results depend on the processing

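No ratio past 2-fold changed sign under the alternatives run, and no log2 ratio, share or count was tested, since each group had 1 library. The counts of members past 2-fold were recomputed for 9 comparisons, and 21 of 180 values changed by more than 1.5 times. Lower in control day 1 against naive were 2 without a cell filter, 2 with at least 20 UMIs in both sums and 0 relative to the median log2 ratio of all genes. That median was −0.15 there, and it lay between −0.15 and 0.22 over the comparisons. In control day 2 against naive, 2 were lower at 20 UMIs. In control day 3 against naive, 0 were higher relative to the median or by the mean of cell CPM and 2 at 20 UMIs, and 2 were lower at 20 UMIs and 3 at 1.5-fold. In A20 cKO day 1 against naive, 2 were higher and 2 lower at 1.5-fold and 1 was lower by the mean of cell CPM. In A20 cKO day 2 against naive, 1 was higher with the stricter cell filter, without recurring barcodes or with at least 100 UMIs, and 2 were lower at 1.5-fold. Between genotypes, 1 was lower at 1.5-fold in naive, and on day 3, 5 were higher at 20 UMIs, and 1 was lower at 1.5-fold and 1 by the mean of cell CPM. In A20 cKO naive against control day 3, 6 were higher at 1.5-fold. The 68 log2 ratios were recomputed under each alternative, 544 values in all, and 6 of these values lay outside the counting interval. They were 2 each by the mean of cell CPM, without recurring barcodes and without the highest barcode. Shares depended on depth, and 40 of 44 moved without thinning and 43 of 44 at 1000 UMIs. Of the pairs 15 of 55 moved at 1000 UMIs and 3 of 55 with another seed. Of the UMIs per positive cell 15 of 55 moved after thinning and 2 of 55 without recurring barcodes. The cause was not tested. No paired analysis was possible because each group had 1 library and the labels give no replicate numbers.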
